A study of Mus musculus with 8 samples.

Results

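The Tnfrsf1b and Tnfrsf8 locus is described here through 82 of the 79758 ATAC-seq sites in the deposited count table, namely all those with a midpoint between 144780000 and 145000000 on chromosome 4 of the mouse build mm9. The sites were chosen by position alone, in a window selected on earlier results from these same counts, so the differences below describe the locus and do not show that it stands apart from other loci. The 8 libraries were made from regulatory T (Treg) cells of spleen and lymph nodes of mixed bone marrow chimeras. They form 4 groups of 2 libraries, labelled wild-type (WT) or Pggt1b knockout (KO here, Pggt1b-def. in the plots) and cTreg or eTreg. Pggt1b codes for a subunit of the enzyme GGTase-I, which attaches a lipid to small GTPases and other proteins. The sources used here do not give the deleted allele, a Cre driver, the sorting gate, or the strain, age and number of the mice. Nothing in the labels tells whether libraries of a group stem from different chimeras, and the p-values therefore reflect the spread between libraries only, which may be technical.

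Tnfrsf1b encodes TNFR2, a receptor for tumour necrosis factor that lacks a death domain and signals through TRAF adaptors to NF-kB. TNFR2 is known for its presence on activated and effector Treg cells, where it supports their expansion. Tnfrsf8 encodes CD30, a receptor of the same superfamily that binds CD30 ligand and appears on lymphocytes after activation. In common usage, eTreg cells are the effector and cTreg cells the central subset, the latter resembling naive T cells. In ATAC-seq a transposase cuts open DNA, so the number of fragments at a site reflects how open the chromatin is there, at promoters and enhancers alike.

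Both genes were found in RefSeq tables of the build GRCm38.p6, in which they lie on the minus strand of chromosome 4 with the lncRNA gene Gm36233 between them. Tnfrsf1b (gene ID 21938) lies on the side of lower coordinates and Tnfrsf8 (gene ID 21941) on the side of higher coordinates. No annotation of mm9 was at hand, so no site was assigned to an exon, intron or promoter of either gene, and sites are named by the distance of their midpoint from the lower edge of the window. The promoters, from 250 bases before to 50 bases after each start, are shown because they are the regulatory sequences whose gene is known. Capitals mark matches to the motifs searched.
Tnfrsf1b promoter, GRCm38.p6 chr4:145246821-145247120, minus strand: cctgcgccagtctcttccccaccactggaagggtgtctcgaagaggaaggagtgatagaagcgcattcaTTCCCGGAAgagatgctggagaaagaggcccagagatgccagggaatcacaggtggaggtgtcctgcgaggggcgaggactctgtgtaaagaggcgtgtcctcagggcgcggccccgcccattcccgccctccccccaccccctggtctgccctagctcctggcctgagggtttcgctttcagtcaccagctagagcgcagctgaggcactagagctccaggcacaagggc
Tnfrsf8 promoter, GRCm38.p6 chr4:145315115-145315414, minus strand: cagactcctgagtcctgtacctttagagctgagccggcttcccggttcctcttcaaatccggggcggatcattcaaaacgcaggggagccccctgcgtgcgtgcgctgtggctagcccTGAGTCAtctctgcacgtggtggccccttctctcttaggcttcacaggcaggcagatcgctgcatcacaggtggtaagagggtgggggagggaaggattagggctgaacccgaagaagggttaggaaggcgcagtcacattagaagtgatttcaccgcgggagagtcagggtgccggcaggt

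These coordinates belong to another build than those of the sites and cannot be compared with them. The Tnfrsf1b promoter held 62.7% G and C and the Tnfrsf8 promoter 59.3%, against a median of 52.7% over 32851 RefSeq promoters of the same length. Motifs were searched as exact letters on both strands. The Tnfrsf8 promoter held 1 match to the AP-1 motif TGAGTCA, from base 119 of the printed sequence, which reads TGACTCA on the other strand and occurs in 5.2% of all these promoters. The Tnfrsf1b promoter held 1 match to the STAT motif TTCNNNGAA, from base 70, a motif in 8.3% of promoters. Neither promoter held the NF-kB motifs GGGACTTTC (0.353% of promoters) and GGAATTTCC (0.317%), the forkhead motif TGTTTAC (3.65%), the Runx motif TGTGGTT (5.27%), the Ets motif ACAGGAAG (3.58%) or GATAA, the core of GATA motifs (25.4%). These matches describe letters in the sequence and say nothing about binding.

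Depth differed between groups. Totals were 11194290 to 14974253 counts in the 4 WT libraries, 8854687 and 7153991 in the KO cTreg libraries, and 2255214 and 1664702 in the KO eTreg libraries. The locus held 14745 to 19777 counts per WT library, 9187 and 7899 in KO cTreg, and 2576 and 1913 in KO eTreg libraries. No site of the locus was without a count in a WT library, but 13 and 14 of the 82 sites had none in the KO eTreg libraries, where 1 count was worth 0.448 and 0.593 CPM (the usual library-scaled count, here with TMM factors). At a count of 0, a floor of 6 counts over the group (3 pairs, since most small counts are even) equals 1.53 CPM there. Changes at weak sites in this group were thus measured with the least precision. In bulk libraries, fewer cells with an open site and a less open site in every cell cannot be told apart, and neither the labelled subsets nor the loss of Pggt1b was checked at its genes, since no site was assigned to a gene.

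The locus was dense in open sites. Among 6732 windows of 220 kb that held any site, 3 had more sites than the locus, and the median was 9. Those windows form a fixed grid from each chromosome start, which can split dense stretches. The window of the locus was placed around its genes, so this rank may overstate how rare its density is. Sites were 19 to 1289 bp wide (median 120.5 bp, against 104 bp over all sites) and covered 17539 bp. They ran from 3.8 to 176.4 kb from the lower edge, and the last 43.6 kb held none. The nearest sites outside the window lay 12 kb below its lower edge, at chr4:144767959-144768004, and 53.9 kb above its upper edge, at chr4:145053611-145054282. The former had group means of 0.448 to 0.879 CPM and was too weak to be tested. The latter had 32.1 CPM in WT cTreg, 22.8 in WT eTreg, 22 in KO cTreg and 11.2 in KO eTreg cells. Just inside the edges, the sites at 3.8 kb (chr4:144783788-144783869) and 176.4 kb (chr4:144956350-144956446) were weak, with group means of 0.253 to 1.35 CPM and 0.525 to 2.6 CPM.

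The 5 sites with the highest CPM carried 42.6% of the signal of the locus. The site at 46.2 kb, chr4:144825813-144826507, was the strongest. It had 150 and 148 CPM in WT cTreg, 162 and 159 CPM in WT eTreg, 133 and 140 CPM in KO cTreg, and 138 and 149 CPM in KO eTreg libraries. edgeR called it in no comparison, with log2 fold changes between -0.16 ± 0.09 (SE) and 0.11 ± 0.07, while limma-voom with group weights called it higher in WT eTreg than in WT cTreg cells (0.1, adjusted p = 0.0445). The site at 50.9 kb, chr4:144830576-144831202, had 80.7 to 97.6 CPM in the 8 libraries and was likewise called by edgeR in no comparison. The other sites among these 5 were those at 64.4 kb (chr4:144844097-144844752), 31.7 kb (chr4:144811033-144812322) and 171.2 kb (chr4:144951085-144951353), which are described below. Per kb of width the order was different: the site at 171.2 kb led with a mean level of 269 CPM per kb, followed by the site at 46.2 kb with 212, that at 64.4 kb with 180 and that at 50.9 kb with 141 CPM per kb.

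Summed over all 82 sites, the locus was highest in WT eTreg and lowest in KO cTreg cells. The sum was 1251 ± 1.8 CPM (SD, n = 2) in WT cTreg, 1355 ± 17.1 CPM in WT eTreg, 1060 ± 42.3 CPM in KO cTreg and 1144 ± 15.3 CPM in KO eTreg libraries. The 2 libraries of each group did not overlap with those of any other group, but how often sums of other windows separate in this way was not counted. On the log2 scale the ratio of eTreg to cTreg was 0.11 in both genotypes, and the ratio of KO to WT was -0.24 in both subsets. With 2 libraries a group, the smallest p of an exact permutation test is 0.33, so no test is given for these sums.

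The window was split into 4 segments of 55 kb, and the group ratios of their summed CPM differed between segments. In the segment up to 55 kb (32 sites), the sums were 590.1 ± 0.685 CPM in WT cTreg and 595.2 ± 18.1 CPM in WT eTreg, and 523.5 ± 21.2 and 496.6 ± 16.7 CPM in KO cTreg and eTreg libraries. The WT subsets overlapped there. In the segment from 55 to 110 kb (32 sites), the sums were 373.2 ± 1.61 CPM in WT cTreg, 402.4 ± 5.96 CPM in WT eTreg, 312.8 ± 9.23 CPM in KO cTreg and 374.7 ± 5.33 CPM in KO eTreg libraries. KO eTreg was there at 0.931 times WT eTreg and 1.2 times KO cTreg, and KO cTreg at 0.838 times WT cTreg. In the segment from 110 to 165 kb (16 sites), WT eTreg libraries reached 287.7 and 301.6 CPM, 1.42 times the mean of WT cTreg libraries, at 202.5 and 213.7 CPM. KO cTreg libraries had 141.5 and 150.8 CPM there, 0.703 times the WT cTreg mean. KO eTreg libraries had 217.1 and 180.7 CPM, 0.675 times the WT eTreg mean and spread on both sides of the WT cTreg libraries. In the segment above 165 kb, whose signal comes from the sites at 171.2 and 176.4 kb, WT eTreg was the lowest group, at 0.78 times WT cTreg, and KO eTreg stood at 1.19 times WT eTreg.

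**Figure D1:**
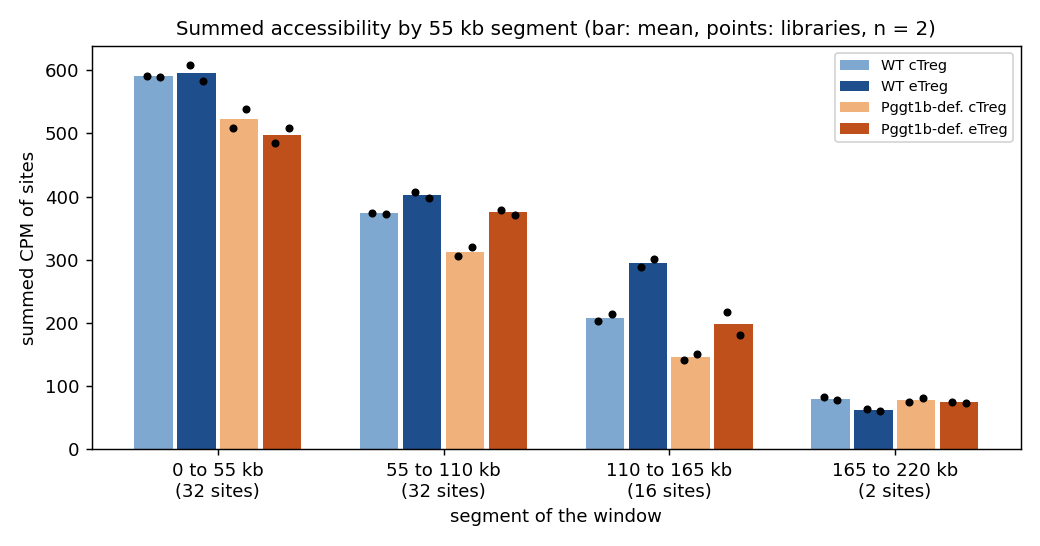
Summed CPM of the sites (y axis) in each 55 kb segment of the window (x axis), with bars for group means and points for the 2 libraries of a group. From 110 to 165 kb, WT eTreg libraries (287.7 and 301.6 CPM) lie above all others, and both KO cTreg libraries (141.5 and 150.8 CPM) lie below all others.

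The first comparison asked how the locus differs between eTreg and cTreg cells of the WT. Of 78 sites that passed the filter on low counts, 12 were higher and 7 lower in WT eTreg cells (edgeR, adjusted p under 0.05), 24.4% of the tested sites, while 28.7% of all 75352 tested sites were called, 13.8% higher and 14.9% lower. The share is near that background. The median log2 fold change was 0.1 over the locus and 0 over all tested sites. Of the 12 higher sites, 4 were among 31 tested sites from 55 to 110 kb and 6 among 14 tested sites from 110 to 165 kb. Between 110 and 165 kb edgeR called no site lower, although the site at 133.8 kb (chr4:144913750-144913895) had 5.72 and 7.29 CPM in WT cTreg and 4.63 and 3.39 CPM in WT eTreg libraries (-0.71 ± 0.29, adjusted p = 0.0658). limma-voom with group weights called that site lower (adjusted p = 0.0214), as did edgeR on the compared libraries alone (0.0302). Leaving out WT cTreg replicate 1 or 2 gave 11 and 10 called sites, and leaving out WT eTreg replicate 1 or 2 gave 12 and 10.

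The site at 125.1 kb, chr4:144904929-144905360, had the smallest adjusted p of the locus. It had 42.4 and 46.3 CPM in WT cTreg and 88.4 and 92.7 CPM in WT eTreg libraries, a log2 change of 1.03 ± 0.11 (SE; edgeR adjusted p = 5.82e-10). The groups did not overlap at this site, which is 431 bp wide. Over all tested sites, both WT eTreg libraries lay above both WT cTreg libraries at 33.7% of sites and below them at 33.9%. The site at 84.9 kb, chr4:144864817-144865063, had 7.73 and 6.57 CPM in WT cTreg and 20.9 and 23.1 CPM in WT eTreg libraries, a log2 change of 1.62 ± 0.20 (edgeR adjusted p = 4.97e-08). At 93.6 kb, chr4:144873332-144873868 rose from 19.2 and 17.1 CPM to 38.4 and 32.4 CPM (0.96 ± 0.16, edgeR adjusted p = 7.43e-06). The site at 122.6 kb, chr4:144902424-144902786 rose from 13.4 and 13.9 CPM to 22.8 and 24.8 CPM (0.81 ± 0.17, edgeR adjusted p = 0.00024). One rise lay apart, below 55 kb: at 19.4 kb, chr4:144799373-144799514 went from 5.32 and 5.07 CPM to 11.8 and 11.5 CPM (1.16 ± 0.26, edgeR adjusted p = 0.000521). These 5 calls held without any single library, and that at 122.6 kb was lost after thinning to the smallest library (adjusted p = 0.0688).

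Other rises were called less firmly. The site at 152.1 kb, chr4:144931764-144932398, had 23.4 and 23.1 CPM in WT cTreg and 30.6 and 35.8 CPM in WT eTreg libraries (0.52 ± 0.14), and its adjusted p of 0.00495 was 0.166 without WT eTreg replicate 2, 0.0645 without WT cTreg replicate 1 and 0.0664 without WT cTreg replicate 2. The site at 112.1 kb, chr4:144892052-144892191, rose by 1.35 ± 0.36 (adjusted p = 0.00411, but 0.0665 without WT cTreg replicate 2 and 0.0513 without WT eTreg replicate 1). The site at 94.4 kb, chr4:144874272-144874499, rose from 2.25 and 1.35 CPM to 4.45 and 5.02 CPM (1.39 ± 0.40, adjusted p = 0.00702, but 0.157 without WT cTreg replicate 2, 0.0996 without WT eTreg replicate 2 and 0.0812 with DESeq2). The WT groups did not overlap at these 3 sites, but both WT eTreg libraries were the higher ones at 33.7% of all tested sites. The site at 146.2 kb, chr4:144926085-144926234, rose by 0.75 ± 0.28 (adjusted p = 0.0426), and the broad site at 31.7 kb by 0.25 ± 0.09 (adjusted p = 0.0278), and both lost the call without any 1 of the 4 WT libraries (adjusted p of 0.122 to 0.281 and 0.119 to 0.222). DESeq2 also did not call the former (0.188), which was lost in 7 of 17 alternatives, with a log2 change as small as 0.36. The latter was also lost with loess offsets (edgeR adjusted p = 0.0935) and after thinning (0.285).

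A smaller group of sites was less open in WT eTreg cells. At 76.7 kb, chr4:144856516-144856874 fell from 36.1 and 37.2 CPM in WT cTreg to 16.5 and 16.6 CPM in WT eTreg libraries (-1.14 ± 0.14, edgeR adjusted p = 4.02e-08). At 34.7 kb, chr4:144814497-144814912 fell from 13 and 13.8 CPM to 3.06 and 5.43 CPM (-1.62 ± 0.25, edgeR adjusted p = 3.05e-06). At 73.7 kb, chr4:144853525-144853793 fell from 12.3 and 11.2 CPM to 6.21 and 5.16 CPM (-1.05 ± 0.24, edgeR adjusted p = 0.000833). These 3 calls held without any single library, and that at 73.7 kb was lost after thinning (-0.41, adjusted p = 0.597). The site at 39.1 kb, chr4:144818815-144819287, fell by 0.56 on the log2 scale (adjusted p = 0.00234, but 0.0515 without WT cTreg replicate 2 and 0.0794 without WT eTreg replicate 2). Thinning also took away the call at 39.1 kb (-0.68, edgeR adjusted p = 0.0546). The sites at 171.2 and 176.4 kb fell by 0.33 and 2.23 on the log2 scale. The former had an adjusted p of 0.00682, but 0.0987 without WT cTreg replicate 1 and 0.102 without WT eTreg replicate 2. The latter had an adjusted p of 0.00583, but 0.0635 without WT cTreg replicate 1 and 0.0783 without WT eTreg replicate 1.

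**Figure D2:**
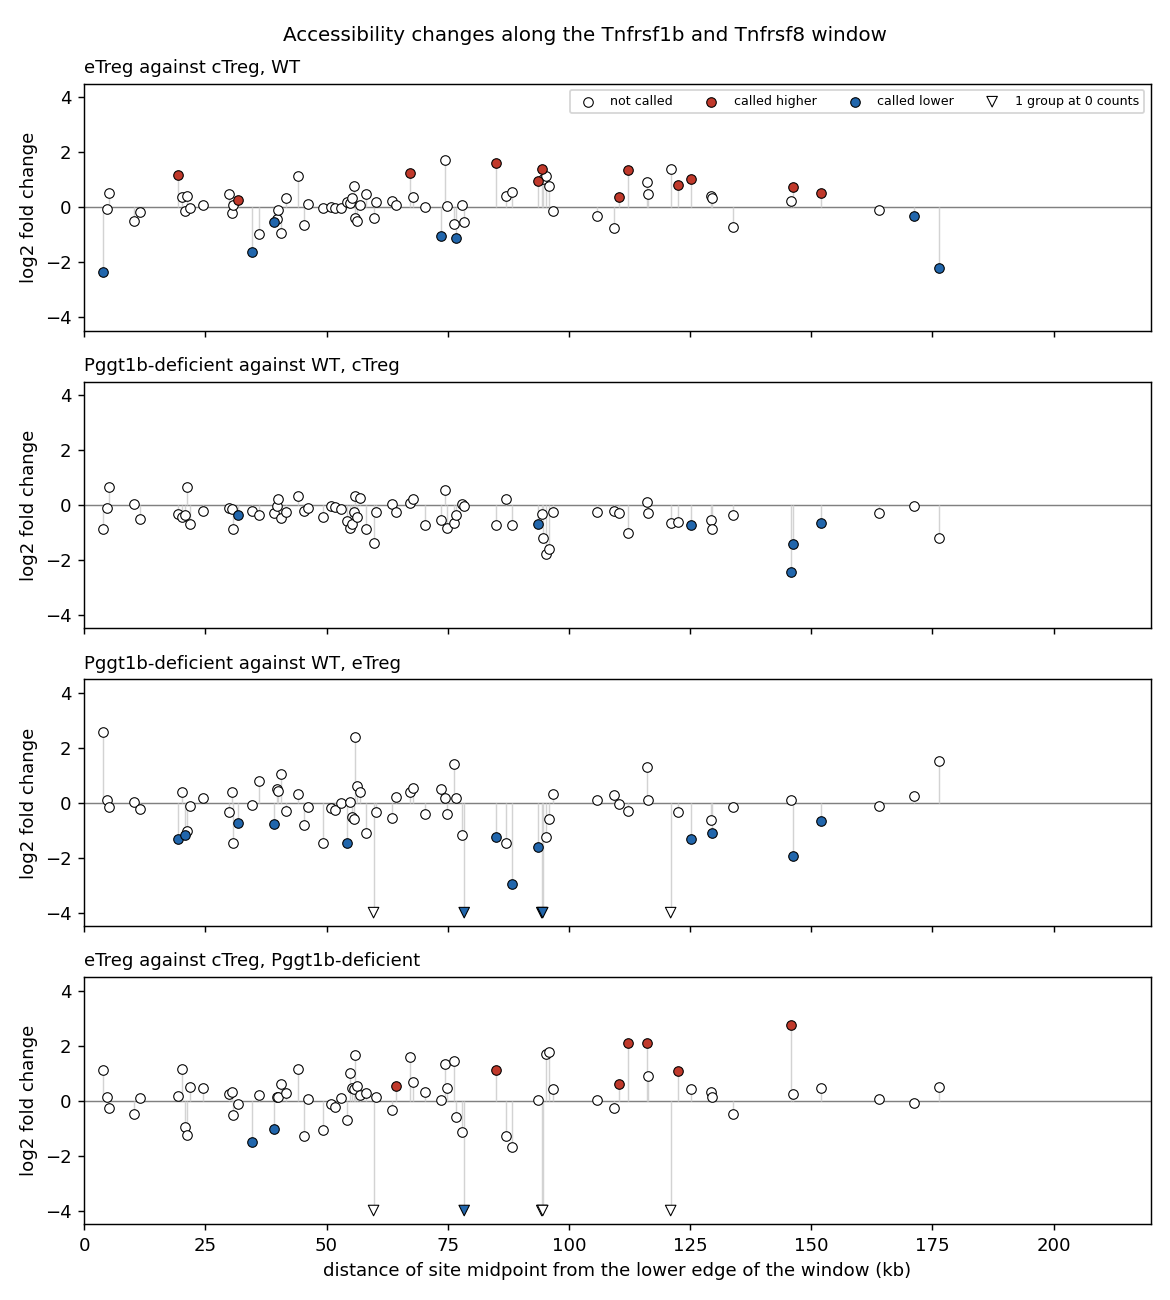
Log2 fold change (y axis) of each tested site by the distance of its midpoint from the lower edge of the window (x axis, kb), in 1 panel per comparison, with filled points for sites at an edgeR adjusted p under 0.05. Triangles stand at the lower end of the scale for sites at which the KO eTreg group has no count and no fold is drawn, and the called points of both genotype comparisons all lie below 0.

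Loss of Pggt1b in cTreg cells was set against WT cTreg cells next. Of 78 sites, 6 were lower and none was higher in KO cTreg cells, 7.69% of the tested sites, while 2.21% of all tested sites were called, 1.69% lower and 0.53% higher. DESeq2 called 1 of the 78 sites, which was lower, and 2.63% of all sites that it gave an adjusted p. The 1 site is out of all 78 tested, while the 2.63% counts only sites with an adjusted p. These 2 shares have unlike bases and cannot be set against each other. limma-voom with group weights called 7, all lower, while it called 3.8% of all tested sites. With edgeR, 21 sites (26.9%) had an unadjusted p under 0.05 in either direction, against 13.7% of all tested sites. The median log2 fold change was -0.33 over the locus and -0.03 over all tested sites, and 64 of the 78 sites (82.1%) had a negative value, against 53.6% of all tested sites. The segment from 110 to 165 kb held 4 of the 6 lower sites and 14 of the 78 tested sites. Leaving out 1 library of either group left a single library in that group. Fewer sites were then called, both in the locus and over all tested sites.

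The site at 125.1 kb was the firmest of the lower sites. It had 24.9 and 28.7 CPM in KO cTreg libraries against 42.4 and 46.3 CPM in WT cTreg libraries, a log2 change of -0.73 ± 0.12 (edgeR adjusted p = 0.000226). It was called under every alternative run, with an adjusted p of 1.84e-05 to 0.0463. Other lower sites lay farther up. At 146.2 kb the level fell from 4.35 and 4.99 CPM to 1.79 and 1.66 CPM (-1.42 ± 0.37, edgeR adjusted p = 0.0263), and at 152.1 kb from 23.4 and 23.1 CPM to 13.9 and 16 CPM (-0.64 ± 0.16, adjusted p = 0.022). The site at 93.6 kb fell from 19.2 and 17.1 CPM to 9.2 and 13.4 CPM (-0.70 ± 0.18, adjusted p = 0.0309). The site at 31.7 kb fell from 95.8 and 91.5 CPM to 73.6 and 72.3 CPM (-0.36 ± 0.09, adjusted p = 0.0263). At these 4 sites both KO cTreg libraries lay below both WT cTreg libraries, as they did at 26.3% of all tested sites. The calls were lost without WT cTreg replicate 1 or 2 or KO cTreg replicate 1, and those at 31.7, 146.2 and 152.1 kb also without KO cTreg replicate 2. DESeq2 called only the site at 125.1 kb in this comparison, and its adjusted p at 31.7, 93.6 and 152.1 kb was 0.0527 to 0.101. After thinning to the smallest library the site at 125.1 kb was again the only one called, so these 4 calls were lost. Over the alternatives the log2 change was as small as -0.33 at 31.7 kb, -0.44 at 93.6 kb, -1.32 at 146.2 kb and -0.22 at 152.1 kb. The call at 93.6 kb was also lost without WT eTreg replicate 1 (0.0578) or replicate 2 (0.0526). The sixth lower site, at 145.9 kb (chr4:144925856-144925924), fell from 52 counts to 6, a 5.59-fold ratio with a 95% counting interval of 1.71 to 28.9.

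In eTreg cells the comparison of KO with WT cells gave 15 lower and no higher sites of 78, 19.2% of the tested sites, while 11.1% of all tested sites were called, 6.43% lower and 4.66% higher. DESeq2 called 9 lower and none higher, while it called 7.91% of all sites that it gave an adjusted p. With edgeR, 25 sites (32.1%) had an unadjusted p under 0.05 in either direction, against 25.3% of all tested sites. With loess offsets, which moved the median over all sites from -0.09 to 0.02, 12 were lower and 2 higher, and 10.5% of all tested sites were called. The 2 higher sites lay at 3.8 and 55.9 kb (chr4:144835866-144835915), both named after their values were seen. Both rest on few counts. At 3.8 kb there were 6 and 0 counts in KO eTreg and 4 and 2 in WT eTreg libraries. At 55.9 kb there were 7 and 4 counts in KO eTreg and 7 and 6 in WT eTreg libraries. The median log2 fold change was -0.19 over the locus and -0.09 over all tested sites, and the locus median was -0.17 with the 5 sites without a count in KO eTreg libraries set at their bounds. Without KO eTreg replicate 2, 10 sites were lower and 3 higher, at 3.8, 56.8 (chr4:144836515-144837068) and 116.2 kb. Without WT eTreg replicate 1, fewer sites were called, both in the locus and over all tested sites. limma-voom with group weights called 6 of the 78 sites, 5 of them lower, and 6.09% of all tested sites. With that method the locus was near its background. This comparison shares the WT eTreg libraries with the WT subset comparison, so calls of both are not counted together.

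At 125.1 kb, KO eTreg libraries had 41.3 and 29.6 CPM, against 88.4 and 92.7 CPM in WT eTreg libraries, a log2 change of -1.33 ± 0.15 (edgeR adjusted p = 2.9e-08). Both values lay below those of the WT cTreg libraries as well. At 93.6 kb they had 12.1 and 10.7 CPM against 38.4 and 32.4 CPM (-1.62 ± 0.24, edgeR adjusted p = 1.02e-05), again below WT cTreg. At 31.7 kb they had 59.2 and 78.2 CPM against 112 and 111 CPM (-0.72 ± 0.12, edgeR adjusted p = 3.16e-05). These 3 calls held under every alternative run, including group weights and thinning to the smallest library. The call at 84.9 kb, given next, was lost in 2 of 16 alternatives. The site at 84.9 kb had 8.07 and 10.7 CPM against 20.9 and 23.1 CPM (-1.26 ± 0.28, adjusted p = 0.0023, but 0.0603 without KO eTreg replicate 1), a level still slightly above WT cTreg, at 7.73 and 6.57 CPM.

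At 94.4 kb, next to the site at 93.6 kb, neither KO eTreg library had a count, against 122 counts in WT eTreg libraries, which makes the level at least 3.12-fold lower (edgeR adjusted p = 0.00074). The site at 78.4 kb, chr4:144858312-144858397, also had no count, against 64, which makes it at least 1.64-fold lower (edgeR adjusted p = 0.011, but 0.0922 without KO eTreg replicate 1). At 88.3 kb, chr4:144868273-144868388 had 2 counts against 103, a 7.9-fold ratio with a 95% interval of 1.37 to 321 (edgeR adjusted p = 0.0151, but 0.0517 without WT eTreg replicate 1 and 0.0965 without KO eTreg replicate 2). These sites are weak, and the fold at each is known only within wide limits.

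Of the remaining named sites, those at 146.2 and 152.1 kb were lower in KO eTreg cells by 1.93 and 0.67 on the log2 scale. The former had 1.79 and 2.37 CPM against 7.51 and 8.15 CPM (adjusted p = 0.00802, but 0.0936 without KO eTreg replicate 1). The latter had 23.3 and 17.8 CPM against 30.6 and 35.8 CPM (adjusted p = 0.0219, but 0.146 without KO eTreg replicate 2 and 0.179 without WT eTreg replicate 2). At 19.4 kb the KO eTreg libraries differed, with 2.69 and 7.11 CPM, and the log2 fold change of -1.33 ± 0.39 (adjusted p = 0.0205) was -0.72 without KO eTreg replicate 1 (adjusted p = 0.329). It was also lost without WT eTreg replicate 1 (0.0645) or 2 (0.0716). At 39.1 kb they had 22.4 and 10.7 CPM, and the change of -0.76 ± 0.23 (adjusted p = 0.0232) was -0.39 without KO eTreg replicate 2 (adjusted p = 0.319), and had an adjusted p of 0.111 without WT eTreg replicate 1. Under limma-voom with group weights the calls at 19.4, 39.1, 78.4, 88.3, 146.2 and 152.1 kb were lost (adjusted p of 0.061 to 0.106). Over all alternatives, the calls at 19.4, 39.1, 146.2 and 152.1 kb were lost in 6, 5, 3 and 6 of 16. Those at 78.4 and 88.3 kb were lost in 2 and 4 of 15. At 122.6 kb, in contrast, the level was 17.9 and 20.1 CPM against 22.8 and 24.8 CPM, a change of -0.33 ± 0.22 that did not pass the test (adjusted p = 0.365), although this site lies next to the one at 125.1 kb.

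**Figure D3:**
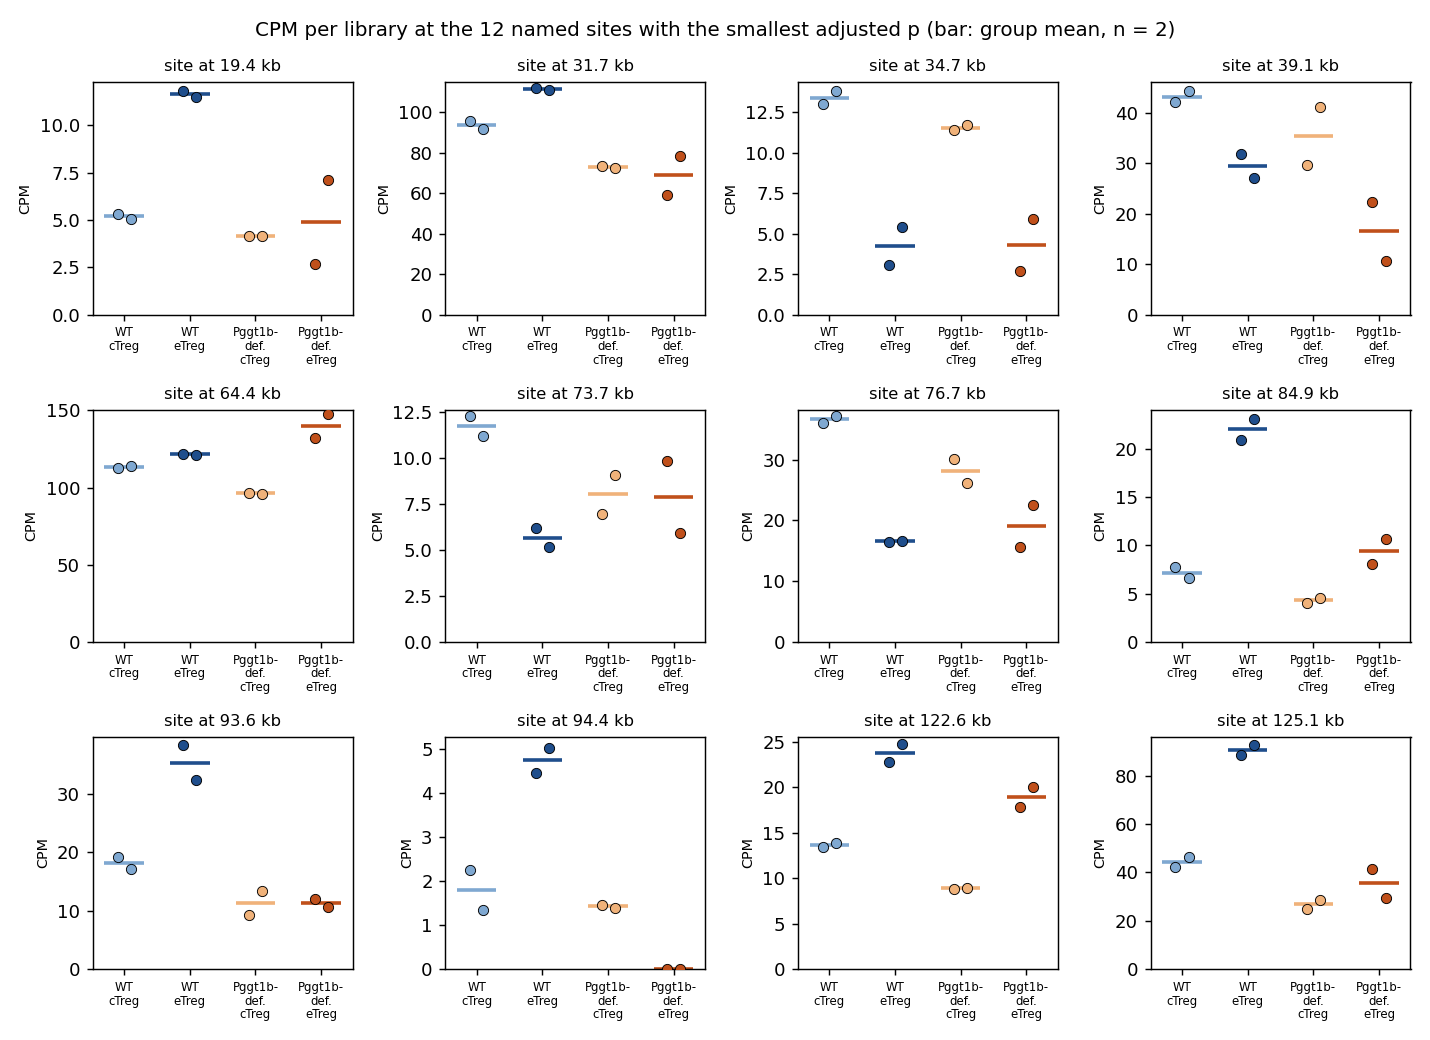
CPM in each library (y axis, from 0) in the 4 groups (x axis) at the 12 named sites with the smallest adjusted p in any comparison, with points for libraries and horizontal lines for group means (n = 2). At 125.1 kb both WT eTreg libraries (88.4 and 92.7 CPM) lie above all others, and at 76.7 kb both WT cTreg libraries (36.1 and 37.2 CPM) do.

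The comparison of eTreg with cTreg cells without Pggt1b gave 7 higher and 3 lower sites of 78, 12.8% of the tested sites, while 9.12% of all tested sites were called, 4.59% higher and 4.52% lower. The median log2 fold change was 0.18 over the locus and -0.06 over all tested sites. Without KO cTreg replicate 1 or 2 or KO eTreg replicate 1, fewer sites were called, both in the locus and over all tested sites. Without KO eTreg replicate 2, more were called in both. The site with the smallest adjusted p was the strong site at 64.4 kb, with 96.6 and 96.1 CPM in KO cTreg and 132 and 148 CPM in KO eTreg libraries (0.54 ± 0.10, edgeR adjusted p = 0.000223). The WT subsets had 113 and 114 CPM and 122 and 121 CPM there, a change of 0.09 ± 0.08 that did not pass the test (adjusted p = 0.412). The interaction, the test of whether the subset difference is the same in both genotypes, was 0.44 ± 0.12 (adjusted p = 0.058), and without KO eTreg replicate 1 it was 0.52 (adjusted p = 0.0396). The site at 122.6 kb rose from 8.86 and 8.97 CPM to 17.9 and 20.1 CPM (1.09 ± 0.25, adjusted p = 0.00384), beside 0.81 ± 0.17 in the WT.

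The site at 110.4 kb, chr4:144890108-144890679, had 24.2 and 25 CPM in KO cTreg and 42.2 and 32 CPM in KO eTreg libraries (0.61 ± 0.17, adjusted p = 0.0189), and it rose in the WT from 29.5 and 30.7 CPM to 39.7 and 38.1 CPM (0.37 ± 0.12, adjusted p = 0.0213).

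Several calls between the KO subsets changed when a library was left out. At 84.9 kb the rise was 1.11 ± 0.35 (adjusted p = 0.0389), which was lost without any 1 of the 8 libraries (0.0548 to 0.175). At 112.1 kb the rise of 2.09 ± 0.59 (adjusted p = 0.0188) was 1.15 without KO eTreg replicate 1 (adjusted p = 0.474), and was lost without KO cTreg replicate 1 (0.0966) or 2 (0.0524). At 116.2 kb (chr4:144896112-144896194) the KO eTreg libraries had 13 and 2.96 CPM, and the change of 2.09 ± 0.51 (adjusted p = 0.00681) was 0.58 without KO eTreg replicate 1 (adjusted p = 0.715) and had an adjusted p of 0.0502 without KO cTreg replicate 2. At 145.9 kb the 6 counts of KO cTreg stood against 10 in KO eTreg libraries, a 6.88-fold ratio of CPM with a 95% interval of 1.34 to 44.3 (adjusted p = 0.035). Among lower sites, the change at 34.7 kb was -1.49 ± 0.41 (adjusted p = 0.0156, but 0.246 without KO eTreg replicate 1), beside -1.62 ± 0.25 in the WT. At 39.1 kb it was -1.03 ± 0.23 (adjusted p = 0.00264, but 0.0739 without KO eTreg replicate 2). limma-voom with group weights did not call the differences at 34.7, 84.9 and 112.1 kb (adjusted p of 0.0886 to 0.103). Over all alternatives, the calls at 34.7, 84.9 and 122.6 kb were lost in 3, 11 and 1 of 16, and that at 112.1 kb in 5 of 15. At 78.4 kb the level went from 56 counts to none, at least 2.26-fold lower (edgeR adjusted p = 0.00437, but 0.0585 without KO eTreg replicate 1).

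At the 125.1 kb site the subsets without Pggt1b had 24.9 and 28.7 CPM in cTreg and 41.3 and 29.6 CPM in eTreg libraries. The eTreg libraries were higher by 0.43 ± 0.17 on the log2 scale, which did not pass the test (edgeR adjusted p = 0.0952, but 0.0242 without KO eTreg replicate 2), beside 1.03 ± 0.11 in the WT. The interaction gave -0.60 ± 0.19 (edgeR adjusted p = 0.11), but -0.89 without KO eTreg replicate 1 (adjusted p = 0.0374). At 93.6 kb the difference was 0.04 ± 0.28 without Pggt1b and 0.96 ± 0.16 in the WT, and the interaction of -0.92 ± 0.32 did not pass the test (adjusted p = 0.134). At 76.7 kb the difference was -0.59 ± 0.21 without Pggt1b (adjusted p = 0.0685, but 0.025 without KO eTreg replicate 2) and -1.14 ± 0.14 in the WT, with an interaction of 0.56 ± 0.26 (adjusted p = 0.298). With all libraries, the subset difference was thus not shown to depend on the genotype at these 3 sites. The interaction was called at 1 of 78 sites, 1.28%, while 1.51% of all tested sites were called, 0.957% higher and 0.555% lower. That site, at 94.4 kb, had 23 counts in KO cTreg libraries, a level of 1.42 CPM that is under the floor of 1.53 CPM in KO eTreg libraries. The call (edgeR adjusted p = 0.0341) was lost without any 1 of 7 libraries, all but WT cTreg replicate 1, with an adjusted p of 0.0524 to 0.115.

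The pairs of comparisons that share no library can be read against each other. Of the 12 sites higher in WT eTreg than WT cTreg cells, 4 (33.3%) were also higher in eTreg cells without Pggt1b, and these were 57.1% of the 7 higher sites there. Over all tested sites these shares were 21.6% and 65%. They lay at 84.9, 110.4, 112.1 and 122.6 kb. Of the 7 lower sites, 2 (28.6%) were also lower without Pggt1b, those at 34.7 and 39.1 kb, against 19.2% over all tested sites. Of the 6 sites lower without Pggt1b in cTreg cells, 5 (83.3%) were also lower in eTreg cells, where they made up 33.3% of 15. Over all tested sites these shares were 56.5% and 14.8%, and with counts this small the locus is given as a description. They lay at 31.7, 93.6, 125.1, 146.2 and 152.1 kb. Over the 73 tested sites with a count in every group, the log2 fold changes correlated at r = 0.32 between the WT and the KO subset comparison, and at r = 0.21 between the genotype comparisons in cTreg and eTreg cells. These values are across sites of 1 locus, which share their libraries and include many weak sites.

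**Figure D4:**
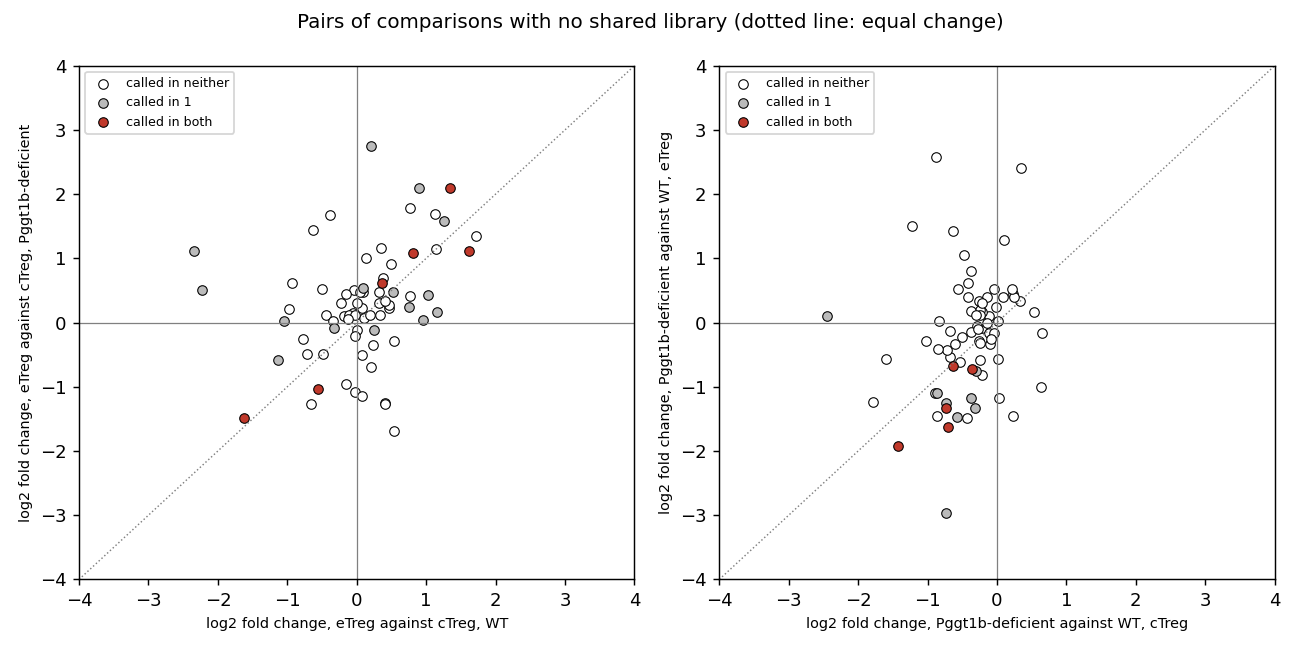
Log2 fold changes of the 73 tested sites with a count in every group, for the WT subset comparison (x axis) against that without Pggt1b (y axis) on the left and for the genotype comparison in cTreg (x axis) against that in eTreg cells (y axis) on the right. On the right, the 5 sites called in both comparisons all lie in the lower left field, where both values are negative.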

How the data were processed

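The series holds 1 table of ATAC-seq counts, which the authors deposited as raw whole numbers per site. Per the submitters' processing notes, they worked on mm9 (NCBIM37) and used MACS2 2.1.1, Trimmomatic 0.36, Picard 2.9.4, bedtools and SAMtools. The aligner, any shift of read ends, the peak calling settings and the counted unit (reads or fragments) were not given in the sources used here. Among values of 1 to 10, the even ones made up 66.1% to 77.4% per library. Starts are printed as in the table, whose base (0 or 1) is unknown.

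Groups and replicate numbers came from sample titles. The edgeR 4.0.16 package (R 4.3.3) was run on all 79758 sites: filterByExpr, which left 75352 sites and 78 of the 82 in the window, scaling by TMM, a joint model of the 4 group means on 8 libraries, and two-sided quasi-likelihood F tests with Benjamini-Hochberg adjustment within each of 5 comparisons (called at an adjusted p under 0.05). Every adjusted p in the text is edgeR's unless another tool is named. Standard errors follow from the fold change and the F statistic. A group without a count gets a lower bound on the fold, against 6 counts over the group. At 1 to 6 counts, ratios carry a 95% Clopper-Pearson interval in which a pair of counts is 1 observation. Both cover counting error only. The procedure was tested on simulated data. Alternatives were DESeq2 1.42.0, limma 3.58.1 (voom with group weights), other scalings, no filter, fewer libraries, a replicate block and thinning. Named sites are up to 20 with the smallest adjusted p in any comparison and the 5 with the highest CPM. Other sites are named where a count of calls or an edge of the window needs them. The window and lists were chosen with earlier results of these data known.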

Additional observations from a re-analysis of the deposited data

Results flagged for a closer look

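The site chr4:144874272-144874499, at 94.4 kb, is singled out because edgeR called it in the test of the interaction. The call was lost in 8 of 13 alternatives. Its KO cTreg level of 1.42 CPM was under the floor of 1.53 CPM in KO eTreg libraries, so no fold between the KO subsets is known. The fitted interaction on the log2 scale was -8.06, a value that depends on the prior count because the KO eTreg libraries had no count (edgeR adjusted p = 0.0341, 0.0317 to 0.115 over the alternatives that gave an adjusted p). The site had 45 counts in WT cTreg, 122 in WT eTreg, 23 in KO cTreg and 0 in KO eTreg libraries.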

How the results depend on the processing

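The limits of depth weigh most on KO eTreg cells. Thinning every library to the smallest total left 38 of the sites to be tested, with 8 called sites for the WT subsets, 1 for Pggt1b loss in cTreg, 4 for Pggt1b loss in eTreg, 3 for the subsets without Pggt1b and 0 for the interaction. Over all sites tested after thinning, 14.2%, 0.288%, 10%, 8.41% and 0.476% were called, in the same order. DESeq2 called 1 site for Pggt1b loss in cTreg, 9 in eTreg and 0 for the interaction, beside 2.63%, 7.91% and 2.04% of all sites with an adjusted p. The locus counts are out of all 78 tested sites and thus have another base than these shares. Limma-voom with group weights called 6 for Pggt1b loss in eTreg, 5 for the subsets without Pggt1b and 0 for the interaction. Its shares over all tested sites were 6.09%, 4.11% and 1.08%. With only the compared libraries, the counts for those first 2 comparisons were 8 of 67 and 5 of 52 tested sites, against 8.73% and 5.85% over all sites. Loess offsets gave 2 interaction calls, the other one at 64.4 kb, against 1.63% of all tested sites. The causes were not tested. Leaving out 1 library at a time gave 10 to 24 called sites for the WT subsets, 1 to 8 for Pggt1b loss in cTreg, 8 to 15 in eTreg, 5 to 11 for the subsets without Pggt1b and 0 to 4 for the interaction. The log2 ratio of summed CPM ranged from 0.1 to 0.12 for the WT subsets, -0.28 to -0.2 for Pggt1b loss in cTreg, -0.27 to -0.23 in eTreg and 0.06 to 0.14 without Pggt1b when 1 library was left out. It was 0.14 without the filter for the WT subsets and 0.17 after thinning for the subsets without Pggt1b. No call at a named site changed direction under an alternative (comparisons in which a site was not called were not followed in this way).

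Replicate deviations of same-numbered libraries hardly correlated between groups (correlations from -0.016 to 0.057). Because the sites include many weak ones, this cannot tell whether same-numbered libraries are paired. With a replicate block, 16, 5, 15, 10 and 1 sites were called in the 5 comparisons, in the order above. Over all tested sites the shares were 26.8%, 2.08%, 10.3%, 8.42% and 1.38%.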

Other observations

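Among 3044 other windows of 220 kb with at least 10 tested sites, the 3 whose summed CPM followed that of the locus most closely over the 8 libraries were at 110.66 to 110.88 Mb of chromosome 10 (r = 0.974), 73.92 to 74.14 Mb of chromosome 5 (r = 0.972) and 120.12 to 120.34 Mb of chromosome 10 (r = 0.97). All 3 had their highest group mean in WT eTreg and their lowest in KO cTreg libraries, as the locus does. The first of them had 264 CPM in WT cTreg, 310 in WT eTreg, 222 in KO cTreg and 252 in KO eTreg libraries. These windows were selected for this likeness among many, so the values are a description.

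The site at 56.8 kb, chr4:144836515-144837068, singled out after its values were seen, had 56.5 CPM in KO eTreg replicate 1 and 31.6 to 39.9 CPM in the other 7 libraries. It passed no test with all libraries, but without KO eTreg replicate 2 it was called higher in KO than in WT eTreg cells (0.71 ± 0.16, edgeR adjusted p = 0.00382).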
